A study of Mus musculus with 12 samples.

Results

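Transcript levels of 10 acute-phase protein genes were examined in mouse liver and in hepatocellular carcinoma (HCC), with and without deletion of survivin. The genes were chosen by name and function: the serum amyloid A genes Saa1, Saa2, Saa3 and Saa4, the orosomucoid genes Orm1 and Orm2, haptoglobin (Hp), lipocalin 2 (Lcn2), serum amyloid P (Apcs) and Itih4. The choice was made with earlier results of these data known. All 10 of 10 names were found among the 34844 gene names of the arrays, and all 10 were among the 26505 genes that passed the filter on dim probes and were tested. Each gene had 1 probe, except Itih4 with 2, of which the brighter was used.

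The study measured RNA on 12 single-colour Agilent arrays in 4 groups of 3. These were survivin-deleted HCC (labelled Mx+tumor), wild-type HCC (Mx-tumor), survivin-deleted liver (Mx+liver) and wild-type liver (Mx-liver), where liver means the non-cancerous tissue. Survivin is the product of Birc5, and the deleted groups carry Mxcre+, in which an interferon-responsive promoter drives Cre recombinase in liver and blood cells, whereas the wild-type groups are Mxcre-. All mice were male, of strain 129/SV/B6, and had been given the liver carcinogen diethylnitrosamine at 50 mg/kg when 2 weeks old. Both genotypes also received poly(IC), a double-stranded RNA mimic that induces interferon, 8 months after the carcinogen, and tissue was taken 1 week later. All groups further shared irradiation with a bone marrow transplant 2 months before sampling. The genotype of the donor marrow, the deleted part of Birc5, and the number of animals behind each group are not given in the labels, so p-values measure the spread between arrays only.

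The acute-phase response is the change in secreted proteins that hepatocytes make during infection, injury or inflammation. Interleukin-6 signals through its receptor Il6ra and the shared subunit Il6st to the transcription factor STAT3, while interleukin-1 and tumour necrosis factor act through NF-kB, and both routes act together with C/EBP factors on the promoters of positive acute-phase genes. Socs3 is induced by STAT3 and limits the same pathway. In mouse liver Saa1 and Saa2 are among the most strongly induced genes of this response, and Saa3 is also made by macrophages and adipocytes. Saa4 is made constitutively.

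The sequences that define the measurements are the array probes. Those of Saa1, Saa3 and Orm2, which had some of the largest differences, are shown with that of Orm1 for comparison, 5′ to 3′ in lower case with no part marked, and with positions in mm9 as given in the scanner files:
Saa1 probe, chr7:53996070-53996129, minus strand: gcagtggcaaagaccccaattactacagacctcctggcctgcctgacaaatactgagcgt
Saa3 probe, chr7:53970389-53970448, minus strand: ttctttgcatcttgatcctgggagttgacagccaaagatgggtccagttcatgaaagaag
Orm1 probe, chr4:63006483-63007090, plus strand: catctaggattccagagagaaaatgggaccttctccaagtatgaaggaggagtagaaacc
Orm2 probe, chr4:63024979-63025038, plus strand: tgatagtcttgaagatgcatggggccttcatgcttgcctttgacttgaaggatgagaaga

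The Orm1 probe of 60 bases spanned 608 bases of genome. Saa1 and Saa2 are close copies of each other, as are the orosomucoid genes, and hybridisation of one transcript to the probe of its relative was not tested. The other probes lay on chromosome 7 from 54009622 to 54009681 (Saa2, plus strand) and from 53983662 to 53983721 (Saa4, minus strand), on chromosome 8 from 112099045 to 112099104 (Hp, minus strand) and on chromosome 2 from 32240199 to 32240258 (Lcn2, minus strand). The Apcs probe lay on chromosome 1 from 174824959 to 174825018 (minus strand), and the Itih4 probe used lay on chromosome 14 from 31714970 to 31715029 (plus strand).

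Promoter windows of 300 bases, from 250 bases before to 50 bases after the gene start, were matched by symbol for 8 of the 10 genes in RefSeq sequence of GRCm38.p6. The 200 bases before the start are shown for the 4 genes whose deletion differences were the largest, with matches to the C/EBP motif TTGCNNAA on either strand in capitals:
Saa1 promoter, chr7:46742981-46743180, minus strand: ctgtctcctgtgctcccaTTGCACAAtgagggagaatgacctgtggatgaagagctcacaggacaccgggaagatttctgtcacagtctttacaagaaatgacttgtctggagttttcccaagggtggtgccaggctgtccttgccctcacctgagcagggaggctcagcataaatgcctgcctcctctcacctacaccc
Saa2 promoter, chr7:46751633-46751832, plus strand: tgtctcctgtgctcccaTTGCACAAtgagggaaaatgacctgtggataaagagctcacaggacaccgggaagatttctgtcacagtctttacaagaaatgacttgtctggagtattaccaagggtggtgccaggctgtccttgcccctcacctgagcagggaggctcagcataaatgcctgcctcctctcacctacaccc
Saa3 promoter, chr7:46715677-46715876, minus strand: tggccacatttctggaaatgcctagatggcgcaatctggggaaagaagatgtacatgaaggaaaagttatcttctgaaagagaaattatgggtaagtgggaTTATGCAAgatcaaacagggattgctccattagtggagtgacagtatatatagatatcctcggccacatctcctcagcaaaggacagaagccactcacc
Orm2 promoter, chr4:63362249-63362448, plus strand: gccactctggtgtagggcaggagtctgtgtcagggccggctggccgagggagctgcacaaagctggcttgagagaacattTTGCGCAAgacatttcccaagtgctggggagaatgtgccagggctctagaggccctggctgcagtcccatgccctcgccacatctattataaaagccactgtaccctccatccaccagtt

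The Saa1 and Saa2 stretches were identical at 195 of 201 aligned positions (97.0%), whereas the Saa1 and Saa3 stretches shared 120 of 234 aligned positions (51.3%). The C/EBP motif was present in 6 of 8 windows (Saa1, Saa2, Saa3, Saa4, Orm2 and Lcn2), against 10.8% of all 32851 windows of that length. It began 182 bases before the start in Saa1 and 183 in Saa2, both as TTGCACAA, 99 in Saa3 as TTATGCAA, 120 in Orm2 as TTGCGCAA and 216 in Lcn2 as TTGCTCAA. The STAT motif TTCNNNGAA, searched on both strands was in the windows of Apcs and Itih4, neither of which held a C/EBP match, against 8.30% of all windows. These matches describe the letters of the windows and no binding was measured.

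Levels are given on the log2 scale as the distance from the 75th percentile of all non-control probes on the same array, so that 0 is the 75th percentile and each unit is a doubling. Replicate 1 of each group was on slide 1 and replicates 2 and 3 were on slide 2. The 75th percentile was 1131 to 1767 intensity units on the 4 arrays of slide 1 and 3343 to 3906 on the 8 arrays of slide 2, and 49.0% to 83.4% of probes were well above background over all arrays. The values of 2 arrays of slide 1, labelled survivin-deleted liver replicate 1 and wild-type HCC replicate 1, stand under each other's name in the authors' deposited value table. Results are therefore given as labelled, with these 2 arrays exchanged, without both, and on slide 2 only. Birc5, the check of the labels, was lower on the survivin-deleted array than on the wild-type array of the same number in all 6 pairs as labelled, and the deletion change was -1.08 ± 0.69 (SE) in HCC and -0.96 ± 0.69 in liver. With the 2 arrays exchanged it was also lower in all 6 pairs, so the direction within pairs does not tell the 2 labellings apart. The change was then -1.62 ± 0.44 in HCC and -1.50 ± 0.44 in liver, larger and with a smaller SE than as labelled. As labelled, the SD of Birc5 levels was 1.80 among the survivin-deleted liver arrays, against 0.13 to 1.29 in the other groups. Which labelling is right was not tested. The probe's place relative to the deleted part of the gene is not known. All 10 of 10 hepatocyte markers were well above background on all 12 arrays.

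The serum amyloid A genes are described first. Saa1, a major inducible serum amyloid A, stood at 6.12, 5.31 and 5.65 in survivin-deleted HCC and 6.33, 3.63 and 4.82 in wild-type HCC (replicates 1, 2 and 3). It stood at 5.53, 5.36 and 5.65 in survivin-deleted liver and 5.85, 3.70 and 5.44 in wild-type liver. The lowest values in both tissues were wild-type arrays of slide 2, the wild-type array of slide 1, as labelled, was above every deleted array of its tissue, and the groups overlapped. As labelled, the deletion change of Saa1 was 0.77 ± 0.53 (SE) in HCC and 0.51 ± 0.53 in liver.

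Saa2, the near copy of Saa1, stood at 5.31, 4.35 and 4.77 in survivin-deleted HCC and 5.06, 2.76 and 3.70 in wild-type HCC. It stood at 4.12, 5.06 and 4.76 in survivin-deleted liver and 3.91, 2.81 and 4.26 in wild-type liver. The deleted array was above the wild-type array of the same number in all 6 pairs, although the groups overlapped in each tissue. How many of all genes did so was not counted. The deletion change was 0.98 ± 0.54 in HCC and 0.99 ± 0.54 in liver, which is 1.97-fold and 1.99-fold.

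Saa3, the serum amyloid A that is also made outside hepatocytes, had the widest range of the 10 genes. It stood at 4.72, 2.87 and 1.41 in survivin-deleted HCC and 4.34, -1.14 and -0.10 in wild-type HCC. It stood at 0.89, 3.36 and 1.55 in survivin-deleted liver and 1.85, -0.06 and 0.14 in wild-type liver. On slide 2 all 4 deleted arrays were above all 4 wild-type arrays, while on slide 1 the array labelled wild-type HCC was high and the array labelled survivin-deleted liver was low. The deletion change as labelled was 1.96 ± 1.11 in HCC and 1.29 ± 1.11 in liver. In such tissue samples a different share of cells that make a transcript and a different level per cell cannot be told apart.

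Saa4, the constitutive member of the family, stood at 3.74, 3.82 and 4.46 in survivin-deleted HCC and 3.59, 3.55 and 4.14 in wild-type HCC. It stood at 2.47, 4.23 and 4.50 in survivin-deleted liver and 3.66, 3.86 and 4.39 in wild-type liver. Apart from the low array labelled survivin-deleted liver replicate 1, its values lay between 3.55 and 4.50. Its deletion change was 0.25 ± 0.37 in HCC and -0.23 ± 0.37 in liver.

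**Figure D1:**
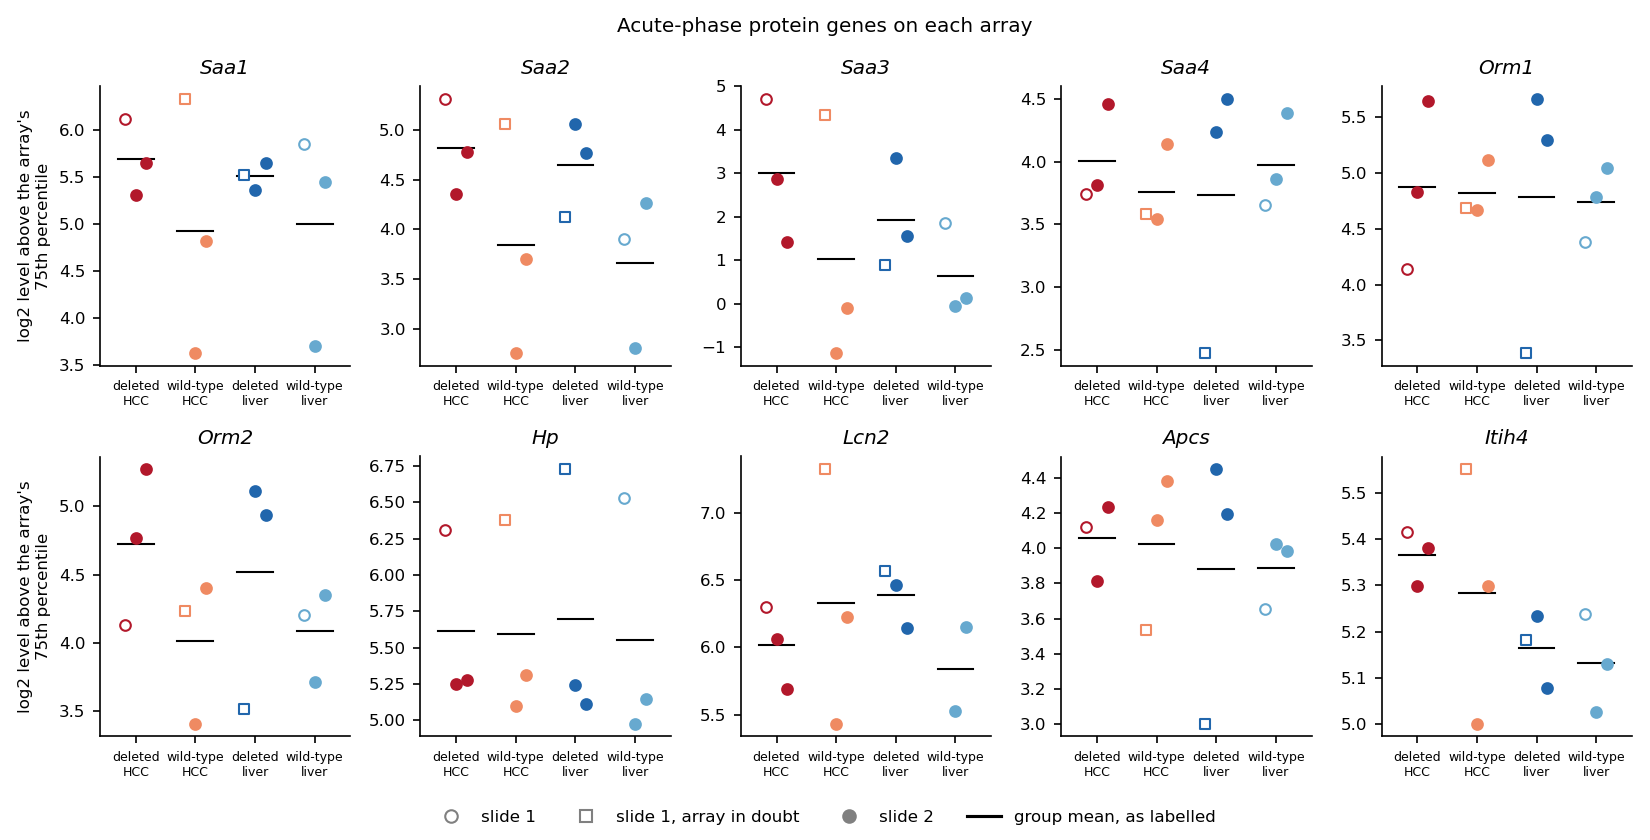
Level of each of the 10 genes on each array (log2 distance from the array's 75th percentile), by group, with slide 1 as open and slide 2 as filled symbols, squares for the 2 arrays in doubt and lines for group means as labelled. For Saa3 the 4 deleted arrays of slide 2 lie between 1.41 and 3.36, above the 4 wild-type arrays of that slide at -1.14 to 0.14.

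The orosomucoids are plasma transport glycoproteins. Orm1 stood at 4.14, 4.83 and 5.64 in survivin-deleted HCC and 4.68, 4.67 and 5.12 in wild-type HCC, and at 3.39, 5.66 and 5.30 in survivin-deleted liver and 4.38, 4.79 and 5.05 in wild-type liver. Its groups overlapped in both tissues, with deletion changes of 0.05 ± 0.38 in HCC and 0.04 ± 0.38 in liver. Orm2 stood at 4.13, 4.76 and 5.27 in survivin-deleted HCC and 4.24, 3.41 and 4.40 in wild-type HCC. In liver it stood at 3.52, 5.11 and 4.93 in the survivin-deleted group and 4.21, 3.71 and 4.35 in the wild-type group. Both deleted arrays of slide 2 were above both wild-type arrays in each tissue, and on slide 1 as labelled the order was the opposite. The deletion change of Orm2 as labelled was 0.71 ± 0.42 in HCC and 0.43 ± 0.42 in liver.

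Haptoglobin binds free haemoglobin. Hp stood at 6.31, 5.25 and 5.28 in survivin-deleted HCC and 6.38, 5.10 and 5.31 in wild-type HCC, and at 6.73, 5.25 and 5.11 in survivin-deleted liver and 6.53, 4.98 and 5.14 in wild-type liver. Its level followed the slide, with 6.31 to 6.73 on slide 1 and 4.98 to 5.31 on slide 2. Once slide was accounted for, the deletion change was 0.02 ± 0.17 in HCC, with a 95% confidence interval of -0.36 to 0.39, and 0.15 ± 0.17 in liver, with an interval of -0.23 to 0.52.

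Lipocalin 2 binds bacterial siderophores and is made by hepatocytes in the acute-phase response and by neutrophils. Its spot on wild-type liver replicate 1 was flagged as an outlier by the scanner software, so Lcn2 rests on 11 arrays. It stood at 6.30, 6.06 and 5.69 in survivin-deleted HCC and 7.32, 5.43 and 6.23 in wild-type HCC, and at 6.57, 6.46 and 6.14 in survivin-deleted liver and 5.53 and 6.15 in wild-type liver (replicates 2 and 3). The groups overlapped in HCC and, narrowly, in liver. The deletion change was -0.31 ± 0.34 in HCC and 0.31 ± 0.39 in liver.

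Apcs encodes serum amyloid P, a pentraxin and an acute-phase protein of the mouse. It stood at 4.12, 3.81 and 4.23 in survivin-deleted HCC and 3.54, 4.16 and 4.38 in wild-type HCC, and at 3.00, 4.45 and 4.19 in survivin-deleted liver and 3.65, 4.03 and 3.98 in wild-type liver. The deletion change was 0.03 ± 0.28 in HCC and -0.01 ± 0.28 in liver, with the lowest of all values on the array labelled survivin-deleted liver replicate 1.

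Itih4, a heavy chain of the inter-alpha-trypsin inhibitor family, varied least, with 5.0 to 5.55 over all 12 arrays. It stood at 5.42, 5.30 and 5.38 in survivin-deleted HCC and 5.55, 5.0 and 5.30 in wild-type HCC, and at 5.18, 5.23 and 5.08 in survivin-deleted liver and 5.24, 5.03 and 5.13 in wild-type liver. The deletion change was 0.08 ± 0.16 in HCC and 0.03 ± 0.16 in liver. The other Itih4 probe gave -0.09 in HCC and -0.46 in liver, and its lowest value was 3.57, in survivin-deleted liver replicate 1 as labelled.

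The first comparison was survivin deletion in HCC. As labelled, 9 of 10 genes averaged higher in survivin-deleted than in wild-type HCC, against 47.4% of all genes. The median change was 0.16 over the 10 genes and -0.02 over all genes tested. Saa3, Saa2 and Saa1 had the largest changes and Lcn2 was the 1 gene on the lower side. Of the genes on the higher side, Saa4, Orm1, Hp, Apcs and Itih4 changed by less than their SE. By limma with slide as a block, 0 of the 10 genes and 0 of 26505 genes (0% called) passed an adjusted p of 0.05. The smallest adjusted p among the 10 was 0.678 (Saa2). At an unadjusted p under 0.05 the counts were 0 of 10, against 7.89% of all genes. The 3 deleted and 3 wild-type arrays did not separate for any of the 10 genes, while 2.76% of all genes were higher and 2.7% lower on all deleted arrays.

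With the 2 arrays in doubt exchanged, the changes in HCC were 1.04 ± 0.44 for Saa1, 1.29 ± 0.38 for Saa2, 3.11 ± 0.52 for Saa3 (8.64-fold) and 0.95 ± 0.32 for Orm2. These 4 of 10 genes then had an unadjusted p under 0.05, against 9.03% of all genes, and Saa3 had the smallest, 1.4e-04. None of the 10 passed the adjusted threshold, with 0.317 as the smallest adjusted p. All deleted arrays were then above all wild-type arrays for Saa2 and Saa3, as for 2.69% of all genes, and 2.74% of all genes separated in the lower direction. Without both arrays the changes of Saa2 and Saa3 were 1.40 ± 0.48 and 2.88 ± 0.67, these 2 of 10 were under an unadjusted 0.05 (12.1% of all genes), and the smallest adjusted p was 0.248.

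On slide 2 only, with 2 arrays a group, Saa2 differed by 1.34 ± 0.53, Saa3 by 2.75 ± 0.75 and Orm2 by 1.11 ± 0.39 between survivin-deleted and wild-type HCC. These 3 of 10 genes had an unadjusted p under 0.05, against 19% of all genes on that slide, and the smallest adjusted p was 0.164 (Saa3). Saa1, Saa2, Saa3 and Orm2 were higher on both deleted arrays than on both wild-type arrays, as were 27.8% of all genes. Saa1 differed by 1.26 ± 0.63 there.

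**Figure D2:**
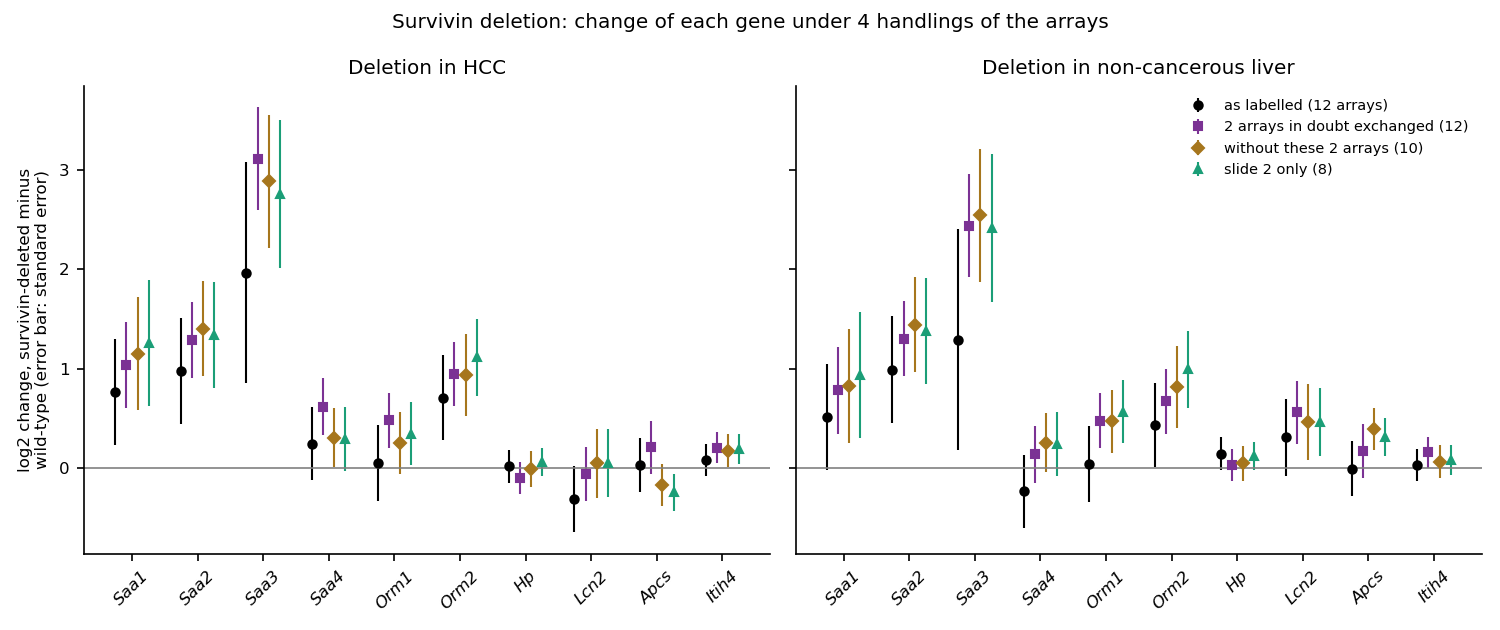
Deletion change of each gene (log2, survivin-deleted minus wild-type, with the standard error of the limma fit) in HCC and in non-cancerous liver as labelled, with the 2 arrays in doubt exchanged, without both, and on slide 2 only. Saa3 in HCC is 1.96 as labelled and 2.75 to 3.11 otherwise, and Hp and Itih4 lie between -0.10 and 0.20 in both tissues.

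The second comparison was survivin deletion in non-cancerous liver. As labelled, 8 of 10 genes averaged higher in survivin-deleted than in wild-type liver, against 55.1% of all genes. The median change was 0.23 over the 10 genes, against 0.05 over all genes. Saa3, Saa2 and Saa1 again had the largest values, and Saa4 and Apcs were on the lower side. None of the 10 and 0 of 26505 genes (0% called) passed the adjusted threshold, and the smallest adjusted p of the 10 was 0.460 (Saa2). At an unadjusted p under 0.05 the counts were 0 of 10, against 11.8% of all genes. The groups separated for 0 of the 9 genes with values on every array, while 6.29% of all genes were higher and 3.23% lower on all deleted arrays.

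With the 2 arrays exchanged, the liver changes were 0.78 ± 0.44 for Saa1, 1.30 ± 0.38 for Saa2, 2.44 ± 0.52 for Saa3 (5.41-fold) and 0.67 ± 0.32 for Orm2. Of the 10 genes, Saa2 and Saa3 had an unadjusted p under 0.05 (9.3% of all genes), and none passed the adjusted threshold (smallest adjusted p 0.502). Saa2 was higher on all deleted than on all wild-type arrays, as were 6.1% of all genes, and 3.06% of all genes separated in the lower direction. Without both arrays Saa2 differed by 1.44 ± 0.48 and Saa3 by 2.54 ± 0.67, and these 2 of 10 were again under an unadjusted 0.05 (7.61% of all genes). On slide 2 only, Saa2 differed by 1.38 ± 0.53, Saa3 by 2.41 ± 0.75 and Orm2 by 0.99 ± 0.39. These 3 of 10 had an unadjusted p under 0.05 (11.6% of all genes), with 0.347 as the smallest adjusted p. Saa2, Saa3, Orm1, Orm2 and Apcs were higher on both deleted than on both wild-type arrays of slide 2, as were 25.9% of all genes.

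The differences between arrays of the same number show where the spread lies. In HCC, Saa3 differed by 0.38, 4.0 and 1.5 in pairs 1, 2 and 3 as labelled, and pair 1 became 3.82 with the 2 arrays exchanged. In liver it differed by -0.96, 3.42 and 1.41, and pair 1 became 2.49. Pair 1, on slide 1, was the only pair in which Saa3 or Orm2 was lower on the deleted array, and after the exchange Saa1, Saa2, Saa3 and Orm2 were higher on the deleted array in all 6 pairs. For Orm2 in liver the difference in pair 1 was then 0.03. Pairs 2 and 3 were on the same slide and rest on the replicate number alone. The share of all genes with the same direction in all 6 pairs was not counted.

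**Figure D3:**
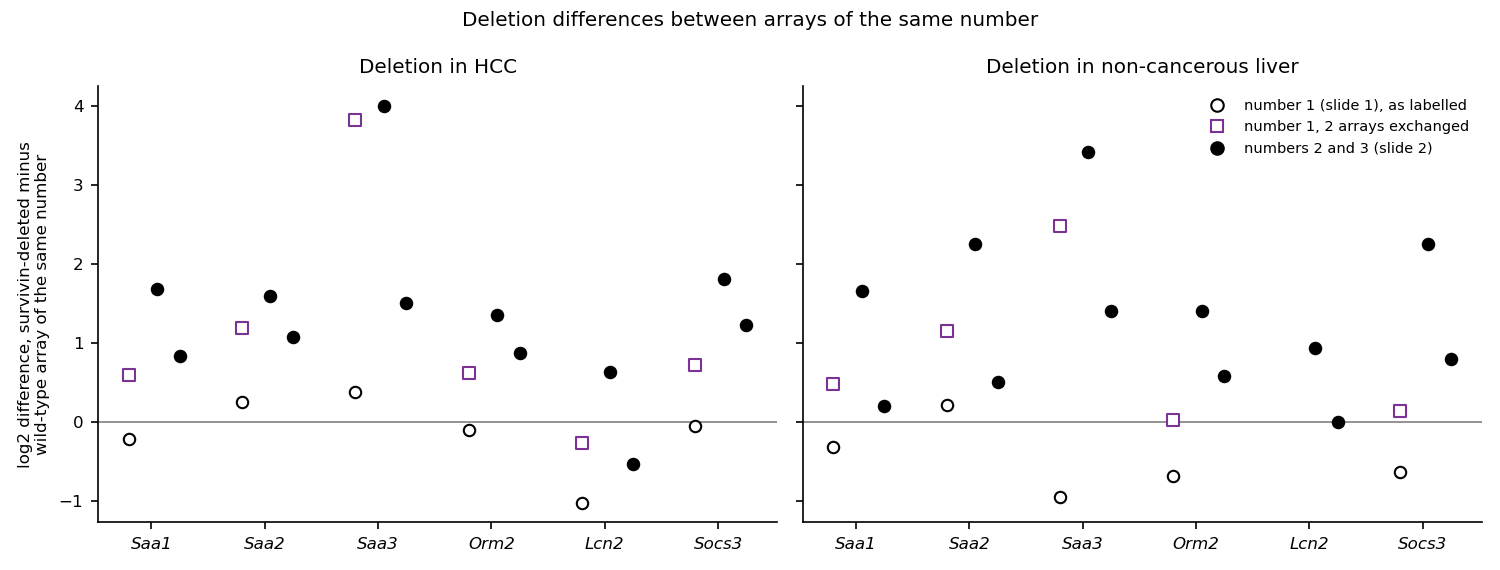
Difference between the survivin-deleted and the wild-type array of the same number (log2) for Saa1, Saa2, Saa3, Orm2, Lcn2 and Socs3, in HCC and in non-cancerous liver, with number 1 as labelled (open circles) and with the 2 arrays exchanged (squares). Saa3 is highest in pair 2, at 4.0 in HCC and 3.42 in liver, and Lcn2 has no value for number 1 in liver.

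The mean of the deletion changes in the 2 tissues was added after the values were seen. As labelled it was 0.98 ± 0.38 for Saa2, 1.63 ± 0.78 for Saa3 and 0.57 ± 0.30 for Orm2, and Saa2 was the 1 gene of the 10 with an unadjusted p under 0.05 (0.028, adjusted p 0.295), against 15.1% of all genes. For Saa3 the adjusted p was 0.072 with the 2 arrays exchanged (2.77 ± 0.37), 0.068 without both (2.71 ± 0.45) and 0.071 on slide 2 only (2.58 ± 0.53), and none of the 10 genes passed in any of these 4 fits. On slide 2 435 of 26501 genes (1.64%) passed. All 4 deleted arrays of slide 2 lay above all 4 wild-type arrays for Saa2, Saa3 and Orm2, as for 7.99% of all genes. With the 2 arrays exchanged, all 6 deleted arrays lay above all 6 wild-type arrays for Saa2, as for 0.191% of all genes.

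The deletion changes of the 2 tissues were compared directly. The change in HCC minus that in liver had a median of 0.04 over the 10 genes and lay between -0.62 ± 0.51 (Lcn2) and 0.67 ± 1.57 (Saa3). It was -0.01 ± 0.76 for Saa2, with a 95% confidence interval of -1.71 to 1.69. No gene passed the adjusted threshold (0 of 10 and 0% of all genes, smallest adjusted p of the 10 0.913), and 0 of 10 had an unadjusted p under 0.05, against 3.28% of all genes.

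HCC was then compared with liver of the same genotype. In survivin-deleted tissue the median of HCC minus liver over the 10 genes was 0.18 as labelled, against -0.04 over all genes, and in wild-type tissue it was 0.11, against 0.04. Both medians were negative under the other 3 handlings. In survivin-deleted tissue the median was -0.09 with the 2 arrays exchanged, -0.20 without both and -0.24 on slide 2 only. The counts were 2 higher and 8 lower in each, against 8 higher and 2 lower as labelled. Of all genes, 45.3%, 53.7% and 52.4% were higher in the same order, and 44.2% as labelled. In wild-type tissue the median of the 10 genes was -0.22, -0.18 and -0.07 in that order. As labelled, none of the 10 genes passed the adjusted threshold in either genotype (0% of all genes in both), and the smallest adjusted p was 0.903 in survivin-deleted and 0.837 in wild-type tissue. At an unadjusted p under 0.05 the count was 0 of 10 in both, against 4.39% of all genes in survivin-deleted and 6.09% in wild-type tissue. As labelled, Itih4 was higher on all 3 survivin-deleted HCC arrays (5.30 to 5.42) than on all 3 survivin-deleted liver arrays (5.08 to 5.23), as were 2.22% of all genes, and its difference was 0.20 ± 0.16. The separation ended with the 2 arrays exchanged, which put 5.55 in the liver group (difference 0.08 ± 0.16), and the other Itih4 probe overlapped as labelled, at 4.68 to 5.06 in HCC and 3.57 to 5.03 in liver. In wild-type tissue the groups separated in this direction for 0 of 9 genes, against 4.66% of all genes. Saa3 differed by 1.06 ± 1.11 in survivin-deleted tissue as labelled and by -0.31 ± 0.75 on slide 2 only. In wild-type tissue it differed by 0.39 ± 1.11 as labelled and by -0.66 ± 0.75 on slide 2. With the 2 arrays exchanged Saa3 differed by -0.083 in survivin-deleted and -0.76 in wild-type tissue. Without both arrays it differed by -0.19 and -0.53, so its positive direction rested on the 2 arrays in doubt as labelled.

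Other genes of the response were read from lists of known acute-phase genes. Of the other positive acute-phase genes, 29 of 29 were measured and 0 passed in either direction, with 11 higher and 18 lower in HCC (median -0.17) and 10 higher and 19 lower in liver (median -0.11) after deletion. The genes of smallest p, none of which passed, were the fibrinogen chains Fgg (-0.37 ± 0.14) and Fga (-0.41 ± 0.18) in HCC, and the protease inhibitors Serpina1a (-0.67 ± 0.17, adjusted p 0.416) and Serpina3k (-0.56 ± 0.23, and -0.32 without survivin-deleted liver replicate 1) in liver. With the 2 arrays exchanged the list's medians were 0.11 in HCC and 0.07 in liver, so its direction turned, whereas the median of the 10 genes was 0.55 and 0.52. All 12 of 12 negative acute-phase genes, plasma proteins that fall during the response, were measured, and 0 passed. They had 4 higher and 8 lower in HCC (median -0.06) and 1 higher and 11 lower in liver (median -0.28). Albumin (Alb) differed by 0.06 ± 0.17 in HCC and -0.54 ± 0.17 in liver, and fetuin A (Ahsg) by -0.46 ± 0.18 and -0.49 ± 0.18, without passing.

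**Figure D4:**
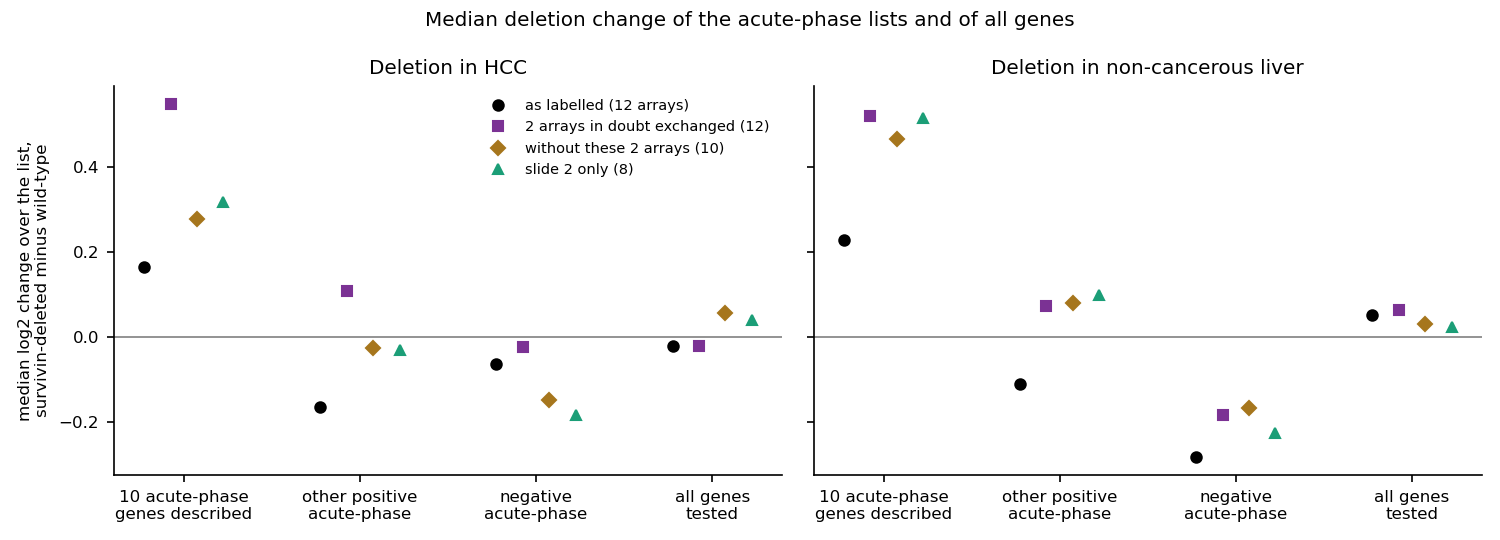
Median deletion change (log2, survivin-deleted minus wild-type) of the 10 genes described, of the 29 other positive and the 12 negative acute-phase genes and of all genes tested, in HCC and in non-cancerous liver under the same 4 handlings of the arrays. The median of the 10 genes is above that of all genes in each of the 8 cases, at 0.16 to 0.55 in HCC and 0.23 to 0.52 in liver. These cases are not independent, since all 4 handlings share the arrays of slide 2. Without wild-type liver replicate 2 (not drawn) the median in liver is 0.0046, against 0.046 over all genes.

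Along the signalling route, the ligand Il6 was not well above background on all arrays of any group and was not tested. In all, 9 of 12 ligands, 11 of 12 receptors, 18 of 18 signal transducers and transcription factors and 10 of 10 feedback inhibitors were tested, and 0 passed in either direction in HCC or in liver. The interleukin-6 receptor Il6ra differed by 0.15 ± 0.17 in HCC and -0.15 ± 0.17 in liver, and its partner Il6st by -0.10 ± 0.22 and -0.07 ± 0.22. Stat3 itself differed by -0.13 ± 0.21 in HCC and 0.03 ± 0.21 in liver. The receptor Tnfrsf1b differed by 0.77 ± 0.24 in HCC and the feedback gene Zfp36 by -0.83 ± 0.34 in liver, without passing. The NF-kB subunit Rela differed by 0.82 ± 0.32 in HCC, also without passing, and by 0.33 without wild-type HCC replicate 1, 1 of the 2 arrays in doubt, which had its lowest value (1.82). Of the ligands, Ifng differed by 2.53 ± 1.04 in HCC and Lif by 1.19 ± 0.41 in liver, without passing. Ifng was well above background on 3 of 3 survivin-deleted and 2 of 3 wild-type arrays in HCC, and likewise in liver. It therefore passed the filter only through the survivin-deleted groups, and its detection and change are not independent of that filter. Lif was well above background on 3 of 3 survivin-deleted and 1 of 3 wild-type liver arrays. Of all arrays, wild-type liver replicate 1 had the fewest probes well above background, which lowers detection in that group. Both lay below 0 on every array and varied widely, Ifng from -6.80 to -0.54 and Lif from -5.70 to -2.55. The Ifng change in HCC was 1.17 without survivin-deleted HCC replicate 2 and 3.85 without survivin-deleted HCC replicate 1.

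Socs3, the feedback inhibitor induced by STAT3, stood at 3.87, 2.55 and 2.44 in survivin-deleted HCC and 3.92, 0.75 and 1.21 in wild-type HCC. In liver it stood at 3.15, 3.25 and 2.58 in the survivin-deleted group and 3.79, 1.00 and 1.79 in the wild-type group. All 4 deleted arrays of slide 2 lay above all 4 wild-type arrays, as for 7.99% of all genes, while on slide 1 as labelled the wild-type array was the higher in both tissues. With the 2 arrays exchanged, Socs3 was higher on the deleted array of slide 1, by 0.72 in HCC and 0.13 in liver. Its deletion change was 0.99 ± 0.51 in HCC and 0.80 ± 0.51 in liver as labelled (adjusted p 0.654 and 0.505), 1.25 ± 0.35 and 1.06 ± 0.35 with the 2 arrays exchanged, and 1.52 ± 0.35 in both on slide 2 (adjusted p 0.139 and 0.301).

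Cell type markers were read beside these values. The mean level of 12 of 12 neutrophil markers was 1.73 to 2.12 in survivin-deleted HCC and 1.11 to 2.32 in wild-type HCC, and on slide 2 it was 2.09 to 2.12 in survivin-deleted and 1.11 to 1.63 in wild-type HCC. In liver it was 1.69 to 2.41 in the survivin-deleted and 2.04 to 2.50 in the wild-type group, and on slide 2 it was 1.69 to 2.41 and 2.04 to 2.18. For 11 of 12 macrophage markers measured the mean was 0.80 to 1.96 in survivin-deleted HCC and 0.54 to 1.79 in wild-type HCC, and 1.40 to 1.59 in survivin-deleted liver and 1.63 to 2.19 in wild-type liver. On slide 2 the macrophage mean was 0.80 to 1.23 in survivin-deleted and 0.54 to 0.86 in wild-type HCC. In liver it was 1.40 to 1.59 in the survivin-deleted and 1.63 to 1.78 in the wild-type group of slide 2. The part of neutrophils and macrophages in the values of Saa3 and Lcn2, which such cells also make, was not tested.

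The 6 of 7 adipocyte markers measured had a mean of 3.58 on survivin-deleted liver replicate 3 and of -1.56 to -0.01 on the other 11 arrays. Saa3 was 1.55 on that array, below the 3.36 of survivin-deleted liver replicate 2 and above the -0.06 and 0.14 of wild-type liver on slide 2. The part of adipocytes in these values was not tested. Without survivin-deleted liver replicate 3 the deletion change in liver was 1.15 for Saa3, 0.83 for Saa2, 0.26 for Saa1 and 0.29 for Orm2. Without survivin-deleted liver replicate 2 it was 0.18 for Saa3, and without wild-type HCC replicate 2 the Saa3 change in HCC was 1.15.

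Likeness between genes was read as Pearson's r of log2 levels over the arrays after the mean of each slide was subtracted, as a description over 14867 genes with ordinary names. The 3 genes most like Saa1 over 12 arrays were Saa2 (r = 0.915), Orm2 (0.913) and Camk2b (0.912). Those most like Hp were Abl2 (0.897), Snx6 (0.888) and Casp12 (0.878), and those most like Lcn2, over 11 arrays, were Trappc4 (0.923), Thsd1 (0.918) and Parg (0.895). The points of each correlation share the scaling of their array. Among the other genes described, Saa1 had r = 0.666 with Saa3, 0.661 with Orm1 and 0.227 with Hp.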

How the data were processed

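RNA of 12 mouse liver and HCC samples was measured on single-colour arrays. The intensity values are processed spot signals that the authors deposited in scanner files, which the submitters' processing notes credit to Agilent Feature Extraction 10.7, with mm9 positions per the file headers. The authors' deposited value table holds log2 values and served as an alternative only. No spot was saturated (0 on every array).

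The signals of the unflagged spots of each probe were averaged and then put on the log2 scale. From these values the 75th percentile over all non-control probes of that array was taken away. Probes well above background on all arrays of a group were kept (39134 probes). Each of 26505 genes, 11468 with clone-like names, was represented by its brightest probe. limma 3.58.1 in R 4.3.3 fitted 4 group means with slide as a block over all 12 arrays (7 residual degrees of freedom), with Benjamini-Hochberg adjustment over all genes at 0.05 in 5 contrasts. The fit was tried on simulated data. The number of arrays limits the precision.

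Members, lists and tests were chosen with earlier results of these data known. All 10 genes are always described. From each other acute-phase or pathway list at most the 3 genes of smallest unadjusted p may be named where none passed. Those under an unadjusted 0.05 are given, with Il6, Il6ra, Il6st, Stat3 and Socs3. A gene that this rule names is not reported here.

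The titles number the replicates, and the numbers follow the slides: the deviations of same-numbered arrays from their group means correlated at 0.279 to 0.737 in 18 of 18 comparisons, all over 0.1. Within slide 2 they were -0.0909 to 0.284. Alternatives were a block for replicate number, no block, slide 2 alone, the 2 arrays exchanged, both left out, quantile normalization, normexp with an offset of 50, the value table, no filter, the mean of all probes, only the groups compared, and each array left out.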

Additional observations from a re-analysis of the deposited data

How the results depend on the processing

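The count of the 10 genes past the adjusted threshold was 0 in all 5 contrasts under every alternative run, and their adjusted p lay between 0.164 and 1.00 in those contrasts. With the replicate number as a block it was also 0, and the smallest adjusted p was 0.696 for deletion in HCC and 0.484 in liver, so the pairing changed no call. The deletion change of Saa1, Saa2, Saa3 and Orm2 was above 0 in both tissues under all alternatives, but it was small without some arrays. Without wild-type liver replicate 2 it was 0.0027 for Saa1, 0.15 for Orm2 and 0.63 for Saa2 in liver, against 0.51, 0.43 and 0.99 with all arrays. Without wild-type HCC replicate 2 it was 0.25 for Saa1, 0.30 for Orm2 and 0.49 for Saa2 in HCC, against 0.77, 0.71 and 0.98. Of 576 values of single genes in the other settings, 49 had the opposite sign to the main value, none past the threshold in either. The cause was not tested. On slide 2 only, for deletion in HCC Lcn2 was 0.047, Apcs -0.24 and Stat3 0.11, for deletion in liver Saa4 was 0.24, Apcs 0.32 and Il6st 0.19. There, for HCC against liver in survivin-deleted tissue Saa3 was -0.31, for HCC against liver in wild-type tissue Saa3 was -0.66 and Lcn2 -0.0088. With the 2 arrays exchanged, for deletion in HCC Hp was -0.098, Stat3 0.061 and Il6st 0.062, for deletion in liver Saa4 was 0.14, Apcs 0.17 and Il6st 0.090. There, for HCC against liver in survivin-deleted tissue Saa3 was -0.083, for HCC against liver in wild-type tissue Saa3 was -0.76 and Lcn2 -0.0048. Without both arrays in doubt, for deletion in HCC Hp was -0.0087, Lcn2 0.047, Apcs -0.17 and Stat3 0.023, for deletion in liver Saa4 was 0.25, Apcs 0.39 and Il6st 0.24. There, for HCC against liver in survivin-deleted tissue Saa3 was -0.19, for HCC against liver in wild-type tissue Saa3 was -0.53 and Lcn2 -0.0088. After normexp background correction, for deletion in HCC Orm1 was -0.16, Hp -0.20 and Itih4 -0.11, for deletion in liver Apcs was 0.19 and Itih4 -0.032. In the value table, for deletion in HCC Hp was -0.099, Stat3 0.059 and Il6st 0.061, for deletion in liver Saa4 was 0.13, Lcn2 -0.0056, Apcs 0.16 and Il6st 0.081. There, for HCC against liver in survivin-deleted tissue Saa3 was -0.074, for HCC against liver in wild-type tissue Saa3 was -0.76 and Lcn2 -0.56. After quantile normalization, for deletion in liver Apcs was 0.18 and Il6st 0.022. With the mean of all probes, for deletion in HCC Itih4 was -0.0025, for deletion in liver Itih4 was -0.21 and Stat3 -0.088. With only the groups compared in the fit, for HCC against liver in wild-type tissue Lcn2 was -0.0088. Leaving out 1 array gave the opposite sign in 32 of 636 further values, with the spread pooled over the groups. Leaving out 1 array in turn, the range for deletion in HCC was -0.041 to 0.14 for Hp, -0.67 to 0.073 for Lcn2, -0.27 to 0.26 for Apcs, -0.32 to 0.047 for Stat3, -0.00066 to 0.48 for Saa4, -0.21 to 0.39 for Orm1 and -0.040 to 0.19 for Itih4. Leaving out 1 array in turn, the range for deletion in liver was -0.20 to 0.32 for Apcs, -0.51 to 0.27 for Saa4, -0.21 to 0.24 for Il6st, -0.25 to 0.54 for Orm1, -0.0034 to 0.62 for Lcn2, -0.078 to 0.15 for Stat3 and -0.033 to 0.095 for Itih4. Leaving out 1 array in turn, the range for HCC against liver in survivin-deleted tissue was -0.49 to 2.17 for Saa3. Leaving out 1 array in turn, the range for HCC against liver in wild-type tissue was -0.95 to 1.20 for Saa3 and -0.067 to 0.66 for Lcn2. Leaving out 1 array in turn, the range for the difference between tissues was -0.88 to 2.01 for Saa3 and -0.027 to 0.75 for Saa4. Over those fits the median change of the 10 genes was -0.0010 (without wild-type HCC replicate 2) to 0.43 in HCC, 0.0046 to 0.50 in liver, -0.26 to 0.38 for HCC against liver in survivin-deleted tissue, -0.33 to 0.34 in wild-type tissue and -0.24 to 0.45 for the difference between tissues. With 3 arrays a group and a typical residual SD of 0.51, the number of arrays limits these fits.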
